A study of Mus musculus with 4 samples.

Results

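Somatostatin and its receptors were followed in bulk RNA sequencing of mouse pancreatic islets, clusters of endocrine cells within the pancreas. The members were chosen by gene symbol alone: the ligand genes Sst and Cort and the receptor genes Sstr1, Sstr2, Sstr3, Sstr4 and Sstr5, 7 of the 55536 genes in the count table. The 2 groups were insulin-depleted libraries (n = 2) and non-depleted libraries (n = 2). All came from islets of male C57BL/6 mice aged 8 weeks, and all were made from polyadenylated RNA. The depletion, a DepleteX panel against insulin sequence, was applied during library preparation and not to the animals. The labels call the samples of a group biological replicates, but every column name carries the same pair of codes, so separate animals are not established and p-values rest on a spread between libraries that may be technical. A size-selection tag stands in the non-depleted column names only, so such a step, if it was taken in 1 group, cannot be told apart from depletion. The preparation text also describes dissociated islets loaded for single-cell work and does not say whether the bulk RNA came from them.

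Somatostatin is the hormone of islet delta cells and holds back the release of both insulin and glucagon from neighbouring cells. Its receptors couple to inhibitory G proteins, which lower cyclic AMP and open G-protein-gated potassium channels. Cortistatin, the product of Cort, is a related peptide that binds the same receptors and is best known from the cerebral cortex. In mouse islets SSTR2 is known mainly from alpha cells, SSTR3 sits on the primary cilia of beta cells, and SSTR5 has been described on beta cells.

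The ends of the coding sequences of both ligands show how closely the 2 peptides are related. These are the last 15 codons before the stop, which hold a bioactive peptide of each precursor. They were read from GENCODE M21 transcripts (GRCm38, Sst chr16:23889732-23889776 and Cort chr4:149125267-149125311, both on the minus strand). Capitals mark bases that match in the ungapped alignment, in which Cort is shifted by 1 codon.
Sst: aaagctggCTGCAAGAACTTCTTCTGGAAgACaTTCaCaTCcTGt
Cort: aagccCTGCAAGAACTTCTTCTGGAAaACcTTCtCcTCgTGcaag
Of 42 aligned bases 31 matched, and the longest run that both transcripts share had 21 bases. No 31-base stretch of either transcript was found in any other gene.

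Among the receptors, only Sstr3 and Sstr5 shared a stretch of 31 bases. Their longest common run had 41 bases and lies within both coding sequences. It is shown in capitals with 12 bases on each side (GRCm38, Sstr3 chr15:78539854-78539918 and Sstr5 chr17:25491586-25491650, both on the minus strand).
Sstr3: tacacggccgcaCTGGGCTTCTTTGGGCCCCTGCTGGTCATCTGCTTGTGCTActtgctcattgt
Sstr5: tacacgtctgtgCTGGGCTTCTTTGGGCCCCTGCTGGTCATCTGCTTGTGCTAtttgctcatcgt
Only 0.257% of the 31-base stretches of Sstr3 and 0.403% of those of Sstr5 occur in another gene, so reads of that length place nearly all of each transcript. Sstr2 lies within the span of Slc39a11 on the other strand, with 0 exon bases in common, and no other member overlaps an annotated gene. No member shares a run of 20 bases with an insulin transcript (longest 12 bases), whereas 3.37% of all genes other than Ins1 and Ins2 do.

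The count totals were 19316173 and 65030111 in insulin-depleted replicates 1 and 2, against 50605417 and 60528485 in non-depleted replicates 1 and 2. Insulin genes took 0.230% ± 0.0484 of counts in insulin-depleted libraries and 4.05% ± 0.122 in non-depleted libraries (SD, n = 2 each), so levels below are CPM, counts scaled to a library total of 1000000 without Ins1 and Ins2. The delta-cell markers Sst, Hhex, Rbp4, Ghsr and Lepr were all present, with summed levels of 621 and 751 CPM in insulin-depleted libraries and 618 and 758 CPM in non-depleted libraries. Sst itself made up most of these sums, with 532 and 658 CPM in insulin-depleted and 527 and 665 CPM in non-depleted libraries. Markers of other cells were present too, and none of them was at 0. The 6 acinar markers, led by Ctrb1, summed to 9535 and 3987 CPM in insulin-depleted replicates 1 and 2, against 9498 and 3985 CPM in non-depleted replicates 1 and 2. Ppy, the gamma-cell hormone gene, had 2619 and 1862 CPM in insulin-depleted replicates 1 and 2, against 2721 and 1905 CPM in non-depleted replicates 1 and 2. Over the 4 libraries the duct markers (led by Spp1) summed to 1121 to 1159 CPM and the endothelial ones (led by Kdr) to 712 to 777 CPM. The duct genes did not move as one. Ratios of replicate 2 to 1 in insulin-depleted and non-depleted libraries were 1.37 and 1.38 for Krt7 and 0.852 and 0.833 for Spp1. They were 0.523 and 0.639 for Krt19, and 0.898 and 1.03 for Sox9. Stellate and fibroblast markers (led by Sparc) summed to 373 to 387 CPM, immune ones (led by Cd68) to 53.5 to 70.0 CPM, and Schwann and neuronal ones (led by Tubb3) to 36.8 to 48.6 CPM. The part of other cells in the results below was not tested.

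Sst was the dominant ligand and Cort was close to undetected. Sst (ENSMUSG00000004366, chromosome 16, 23889573 to 23890958, minus strand, GRCm38) had 532 and 658 CPM in insulin-depleted replicates 1 and 2, against 527 and 665 CPM in non-depleted replicates 1 and 2. In each group replicate 2 was higher than replicate 1, and the groups overlapped. The gene ranked 148 by mean CPM among all 55536 genes.

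Cort (ENSMUSG00000028971, chromosome 4, 149125034 to 149126763, minus strand) had 2 and 2 counts in insulin-depleted replicates 1 and 2, and 2 and 6 counts in non-depleted replicates 1 and 2. Summed over the 4 libraries this was 0.0629 CPM (exact Poisson 95% interval 0.0325 to 0.110). Per kilobase of annotated exon, the scale used here for comparing genes, Sst exceeded Cort by 9167 to 1 in the summed counts (exact interval 5247 to 17741). All such intervals cover counting error only, and they are too narrow if a fragment added 2 counts, since 81.4 to 84.0% of counts from 2 to 9 were even in insulin-depleted libraries and 80.0 to 80.9% in non-depleted libraries.

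Sstr3 held nearly the whole receptor signal. The gene (ENSMUSG00000044933, chromosome 15, 78537008 to 78544685, minus strand) had 358 and 385 CPM in insulin-depleted replicates 1 and 2, against 365 and 399.7 CPM in non-depleted replicates 1 and 2. It ranked 352 among all genes. These levels rest on 6902 to 24943 counts per library and overlapped between groups, with replicate 2 the higher one in each. Scaled by exon length, Sstr3 took 97.5% ± 0.173 of the summed receptor level in insulin-depleted libraries and 97.2% ± 0.434 in non-depleted libraries (SD, n = 2 each).

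Sstr2 and Sstr1 were detected at low levels. Sstr2 (ENSMUSG00000047904, chromosome 11, 113619342 to 113626028, plus strand) had 3.68 and 2.54 CPM in insulin-depleted replicates 1 and 2, against 3.38 and 2.84 CPM in non-depleted replicates 1 and 2. Its groups overlapped, and replicate 1 was the higher one in each. Sstr1 (ENSMUSG00000035431, chromosome 12, 58211772 to 58214444, plus strand), which also couples to inhibitory G proteins, had 0.778 and 2.04 CPM in insulin-depleted replicates 1 and 2, against 2.21 and 1.89 CPM in non-depleted replicates 1 and 2. The low value belongs to insulin-depleted replicate 1, the shallowest library, with 15 Sstr1 counts (exact Poisson 95% interval 0.435 to 1.28 CPM). The other libraries had 107 to 132 Sstr1 counts and lie above that interval.

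Sstr4 and Sstr5 were at the limit of detection. Sstr4 (ENSMUSG00000037014, chromosome 2, 148395344 to 148396767, plus strand) had 4 and 0 counts in insulin-depleted replicates 1 and 2, and 0 and 4 counts in non-depleted replicates 1 and 2. Sstr5 (ENSMUSG00000050824, chromosome 17, 25489875 to 25497288, minus strand) had 0 and 0 counts in insulin-depleted libraries, and 2 and 4 counts in non-depleted replicates 1 and 2. With 84136974 counts outside insulin in the insulin-depleted group, a count of 0 allows a level of up to about 0.0357 CPM. That limit is a simple rule of 3 counts over the group. The exact Poisson 95% interval for the same counts reaches 0.0438 CPM. Both limits are too low if a fragment added 2 counts, and lower levels of Sstr5 were not detectable at this depth. Both insulin-depleted values of Sstr5 were below both non-depleted ones, as was so for 9.33% of the genes tested. Sstr5 is not in that set, since the count filter left it out. In the summed non-depleted libraries Sstr5 had 0.0563 CPM (exact Poisson 95% interval 0.0206 to 0.122). Both limits for the insulin-depleted group lie within that interval.

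**Figure D1:**
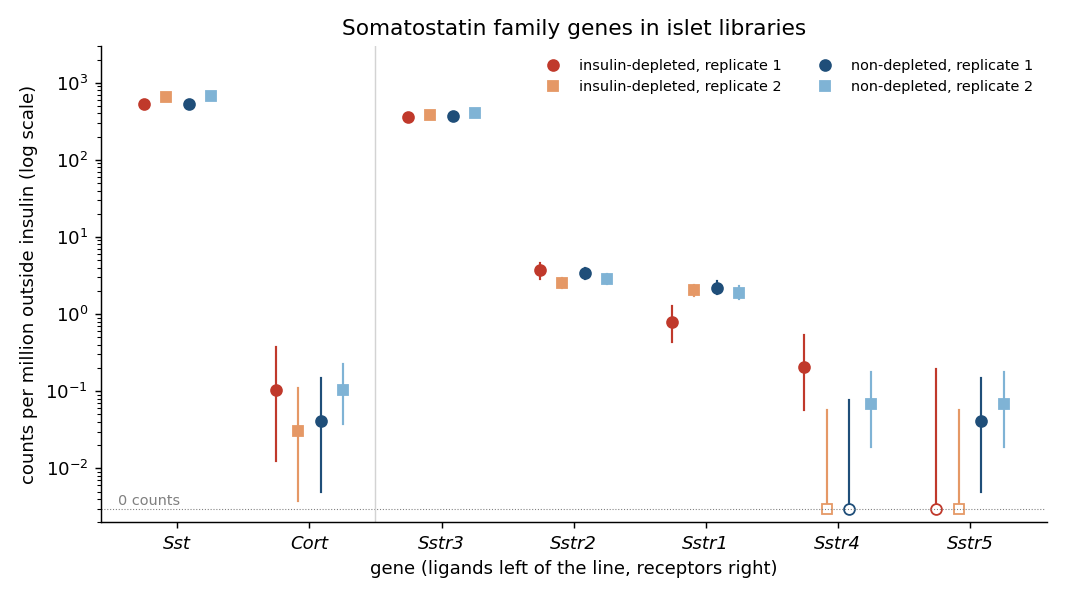
CPM of the total outside insulin (log axis) of the 2 ligand and 5 receptor genes in each library. Points are single libraries, bars are exact Poisson 95% intervals, and open symbols on the dotted line are libraries with 0 counts. Sst lies between 527 and 665 CPM, Sstr3 between 358 and 399.7 CPM, Sstr2 and Sstr1 between 0.778 and 3.68 CPM, and Cort, Sstr4 and Sstr5 at 0 to 6 counts.

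The order of levels per kilobase was Sst, Sstr3, Sstr2 and Sstr1, followed by Cort, Sstr4 and Sstr5. Sst had 731 to 923 CPM per kilobase over the 4 libraries, and Sstr3 had 82.9 to 92.5. Within a library Sst exceeded Sstr3 by 8.91 and 10.2 to 1 in insulin-depleted replicates 1 and 2, and by 8.64 and 9.98 to 1 in non-depleted replicates 1 and 2. These ranges do not overlap, so this step is larger than the spread between libraries.

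Sstr2 had 1.19 to 1.72 CPM per kilobase, and Sstr3 exceeded it by 48.2 and 75.0 to 1 in insulin-depleted replicates 1 and 2 and by 53.6 and 69.8 to 1 in non-depleted replicates 1 and 2. Sstr1, with 0.380 to 1.08 CPM per kilobase, came below Sstr2 in every library. The ratio of Sstr2 to Sstr1 was 4.52 and 1.19 in insulin-depleted replicates 1 and 2, against 1.46 and 1.43 in non-depleted replicates 1 and 2. In insulin-depleted replicate 2 its exact counting interval runs from 0.944 to 1.51, so the order of these receptors is not settled in that library.

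The lowest neighbours in this order did not differ beyond their spread. Cort had 0.0455 to 0.153 CPM per kilobase, Sstr4 0 to 0.146 and Sstr5 0 to 0.0252. The range of Sstr4 overlaps both others, while those of Cort and Sstr5 do not overlap each other. In counts summed over the 4 libraries, 12 for Cort and 8 for Sstr4, Cort exceeded Sstr4 by 3.16 to 1 (exact interval 1.19 to 8.90, counting error only). With each library left out this ratio ran from 2.63 to 5.26, and the interval took in 1 except without insulin-depleted replicate 1. Sstr2 exceeded Sstr4 by 46.9 to 1 in the summed counts (exact interval 23.7 to 109), and 1 library moves that value: it was 82.1 to 1 without insulin-depleted replicate 1, which alone gave 11.8 to 1. The lowest value with a library left out was 33.2 to 1. Sstr2 exceeded Sstr5 by 120.1 to 1 (54.8 to 329), and by 255 to 1 without non-depleted replicate 2, which holds 4 of the 6 Sstr5 counts. Sstr3 exceeded Sstr5 by 7675 to 1 (3526 to 20916), and by 5045 to 1 without insulin-depleted replicate 2 or 15677 to 1 without non-depleted replicate 2.

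The comparison of insulin-depleted with non-depleted libraries asked whether removing insulin sequence altered the measured levels of this family. No member passed the test: 0 of the 4 members with enough counts were called (edgeR quasi-likelihood test, adjusted p under 0.05), against 0.0101% of all 19723 genes tested, which are Ins1 and Ins2. DESeq2 and limma-voom also called 0 members. An unadjusted edgeR p under 0.05 was reached by 0 members, against 82 of all 19723 genes tested. At so small a share, 0 among 4 members is not particular to this family. Cort, Sstr4 and Sstr5 had too few counts to pass the filter of the edgeR test, and no fold change is given for them. DESeq2 and an edgeR fit without a low-count filter took in all 7 members and called 0.

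Mean Sst was 595 ± 88.6 CPM in insulin-depleted libraries and 596 ± 98.0 CPM in non-depleted libraries (SD, n = 2 each). This gave a log2 fold change of -0.0061 (SE 0.15, 95% interval -0.37 to 0.36, edgeR adjusted p = 1.00). On a linear scale the interval runs from 0.773-fold to 1.28-fold. The fit used group alone, so this interval takes in the difference between replicates 1 and 2. With a replicate block, given below, the SE for Sst was 0.02. The labels do not say that replicate numbers mark shared animals. Sstr3 averaged 371 ± 18.8 CPM in insulin-depleted libraries and 382 ± 24.4 CPM in non-depleted libraries, with the narrowest interval of the family. Its log2 fold change was -0.05 (SE 0.08, interval -0.25 to 0.16, edgeR adjusted p = 1.00).

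The lower receptors were measured less precisely. Sstr2 averaged 3.11 ± 0.805 CPM in insulin-depleted libraries and 3.11 ± 0.383 CPM in non-depleted libraries, a log2 fold change of -0.02 (SE 0.28, interval -0.73 to 0.69). Sstr1 averaged 1.41 ± 0.889 CPM in insulin-depleted libraries and 2.05 ± 0.222 CPM in non-depleted libraries, a log2 fold change of -0.48 (SE 0.45, interval -1.61 to 0.66). The edgeR adjusted p was 1.00 for both. The Sstr1 value rests on insulin-depleted replicate 1: without that library it was -0.02. The median over the 4 tested members was -0.03, beside -0.0025 over all genes tested. None of the 4 had groups that did not overlap, whereas 10.2% of the genes tested had both insulin-depleted values higher than either non-depleted value and 9.33% had both lower.

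**Figure D2:**
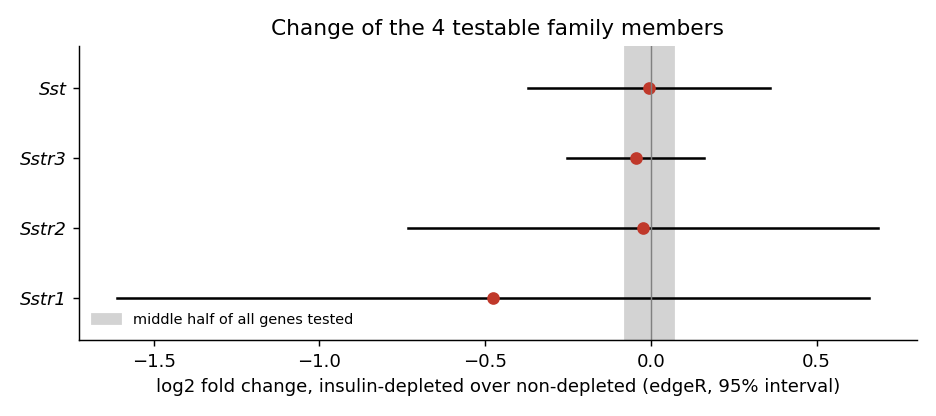
Log2 fold change of the 4 tested members, insulin-depleted over non-depleted, with 95% intervals from edgeR. The grey band runs from the lower to the upper quartile of all genes tested, -0.08 to 0.07. All 4 intervals include 0, from the narrow one of Sstr3 (-0.25 to 0.16) to the wide one of Sstr1 (-1.61 to 0.66).

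Differences between libraries of one group exceeded those between groups for Sst. Replicate 2 had 1.24 times the Sst level of replicate 1 in insulin-depleted libraries and 1.26 times in non-depleted libraries. In a bulk library, fewer delta cells and less Sst RNA per cell cannot be told apart. The acinar sums given above ran the other way, lower in replicate 2 of each group, and their part in the Sst difference was not tested. The other genes of the delta-cell list did not move as one with Sst. The ratio was 0.898 in insulin-depleted and 0.993 in non-depleted libraries for Hhex, a transcription factor of delta cells. It was 1.09 in insulin-depleted and 0.982 in non-depleted libraries for Rbp4, a retinol carrier.

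Ghsr, the ghrelin receptor, had ratios of 1.03 in insulin-depleted and 1.23 in non-depleted libraries. Lepr, the leptin receptor, had 1.55 in insulin-depleted and 1.56 in non-depleted libraries at levels of 0.934 to 1.48 CPM. Sstr3 had ratios of 1.07 in insulin-depleted and 1.09 in non-depleted libraries, and Sstr2 had 0.691 in insulin-depleted and 0.840 in non-depleted libraries. With 2 libraries a group these ratios carry no test. Over the same libraries the summed level of 6 beta-cell markers other than insulin, led by Iapp, was 19338 and 18508 CPM in insulin-depleted replicates 1 and 2, against 19658 and 18360.4 CPM in non-depleted replicates 1 and 2. That of 5 alpha-cell markers, led by Gcg, was 13105 and 11479.8 CPM in insulin-depleted replicates 1 and 2, against 13219 and 11660.5 CPM in non-depleted replicates 1 and 2. Iapp and Gcg made up most of these sums. Ratios of replicate 2 to 1 in insulin-depleted and non-depleted libraries were 0.952 and 0.927 for Iapp and 0.986 and 0.990 for G6pc2. The other beta-cell markers were higher in replicate 2 of both groups. Their ratios were 1.35 and 1.34 for Slc2a2, 1.32 and 1.33 for Nkx6-1, 1.17 and 1.21 for Mafa, and 1.13 and 1.09 for Ucn3.

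**Figure D3:**
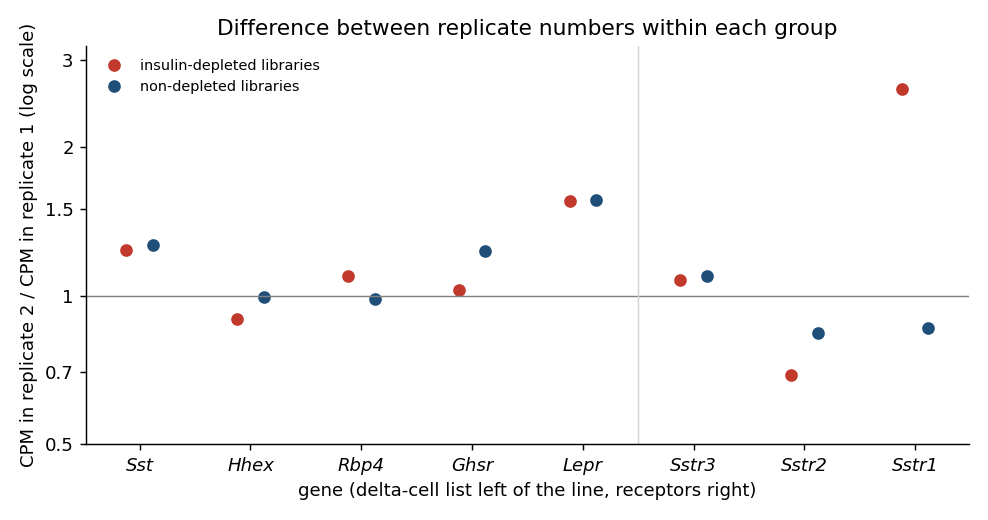
CPM in replicate 2 divided by CPM in replicate 1 (log axis), within insulin-depleted and within non-depleted libraries, for the delta-cell list and the detected receptors. Sst lies at 1.24 and 1.26, Hhex and Rbp4 between 0.898 and 1.09, and Sstr1 differs between the groups, at 2.62 in insulin-depleted and 0.858 in non-depleted libraries.

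The genes whose pattern over the 4 libraries was most like that of Sst were sought among 4738 others that averaged 50 CPM or more. The measure was the root mean square distance of log2 CPM centred on each gene's own mean. The nearest were Papss2 (0.0031), Fbxo21 (0.0049), Pkm (0.0051), Gse1 (0.0073) and BC029722 (0.0092), beside a median distance of 0.16. Sstr3 ranked 1158 on that list, at a distance of 0.10. Nearest to Sstr3 were Fam160b1 (0.0045), Ap3d1 (0.0065) and Dnajc18 (0.0072), beside a median distance of 0.08. Papss2, which makes the sulfate donor of the cell, had 287 and 355 CPM in insulin-depleted replicates 1 and 2, against 283 and 359 CPM in non-depleted replicates 1 and 2. Like Sst it was higher in replicate 2 of each group, which follows from its choice by likeness. These distances describe 4 libraries and carry no test.

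The genes that act around the receptors were read from 6 lists with 32 members. In the edgeR test 0 of the 32 were called higher and 0 lower, against 0.0101% of all genes tested. An unadjusted edgeR p under 0.05 was reached by 0 of the 32, against 82 of all 19723 genes tested. DESeq2 and limma-voom called 0 of the 32. At such shares, 0 among 32 genes is not particular to these lists. Their log2 fold changes had a median of 0.0010, with 18 above and 14 below 0, beside a median of -0.0025 over all genes tested. Both insulin-depleted values were higher than both non-depleted ones for 4 of the 32 (Kcnj3, Arrb1, Grk5 and Crhr1) and lower for 1 (Furin), against the 10.2% and 9.33% of all genes tested given above.

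All 5 inhibitory G alpha subunits, which carry the signal of the receptors, were expressed. Gnai2 had 609 and 773 CPM in insulin-depleted replicates 1 and 2, against 598 and 781 CPM in non-depleted replicates 1 and 2. Gnao1, the Go alpha subunit of neuroendocrine cells, had 367 and 428 CPM in insulin-depleted and 381 and 429 CPM in non-depleted replicates 1 and 2. The list had a median log2 fold change of -0.0035 and a range of -0.10 to 0.05.

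Of the 4 G-protein-gated potassium channel genes, which inhibitory receptors open, Kcnj6 led with 38.6 and 37.0 CPM in insulin-depleted replicates 1 and 2, against 40.0 and 37.9 CPM in non-depleted replicates 1 and 2. Kcnj3 had 3.01 and 2.93 CPM in insulin-depleted replicates 1 and 2, against 2.89 and 2.92 CPM in non-depleted replicates 1 and 2. The log2 fold change of Kcnj6 was -0.05 (SE 0.10) and that of Kcnj3 0.03 (SE 0.22). The lowest value of the list, named after it was seen, was -0.64 (SE 0.99) for Kcnj9, at under 0.25 CPM in every library.

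The 5 genes that process prohormones had the highest summed level of the pathway lists, 7672 to 7824 CPM over the 4 libraries. Cpe, which trims basic residues, averaged 3219 ± 121 CPM in insulin-depleted libraries and 3181 ± 80.2 CPM in non-depleted libraries (SD, n = 2 each). The convertase gene Pcsk2 averaged 2310.2 ± 57.8 CPM in insulin-depleted libraries and 2277 ± 96.2 CPM in non-depleted libraries. The list stayed within -0.03 to 0.03 on the log2 fold change scale.

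Regulators of the Sst gene included Pax6 and Isl1, homeodomain factors of islets, and Hhex. Pax6 averaged 305 ± 52.4 CPM in insulin-depleted libraries and 304 ± 47.9 CPM in non-depleted libraries, and Isl1 113 ± 9.34 CPM in insulin-depleted libraries and 113 ± 5.70 CPM in non-depleted libraries. Hhex had 19.6 and 17.6 CPM in insulin-depleted replicates 1 and 2, against 17.9 and 17.7 CPM in non-depleted replicates 1 and 2. The log2 fold changes of the 6 genes lay between -0.01 and 0.05.

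Receptor desensitisation, which ends signalling, was represented by 6 kinase and arrestin genes. Grk3 averaged 252 ± 9.70 CPM in insulin-depleted libraries and 256 ± 0.204 CPM in non-depleted libraries, and Grk2 109.97 ± 7.41 CPM in insulin-depleted libraries and 103 ± 8.86 CPM in non-depleted libraries. The list ranged from -0.10 to 0.14 in log2 fold change, with a median of 0.03.

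Signals that reach delta cells were led by Ucn3, a beta-cell peptide that stimulates somatostatin release. It averaged 95.1 ± 8.13 CPM in insulin-depleted libraries and 95.8 ± 5.65 CPM in non-depleted libraries. Its receptor gene Crhr2 had only 0.363 and 0.678 CPM in insulin-depleted replicates 1 and 2, against 0.639 and 0.516 CPM in non-depleted replicates 1 and 2. Ghsr had 11.4 and 11.7 CPM in insulin-depleted replicates 1 and 2, against 10.5 and 13.0 CPM in non-depleted replicates 1 and 2. The highest value of this list, named after it was seen, was 0.45 (SE 0.29) for Crhr1.

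**Figure D4:**
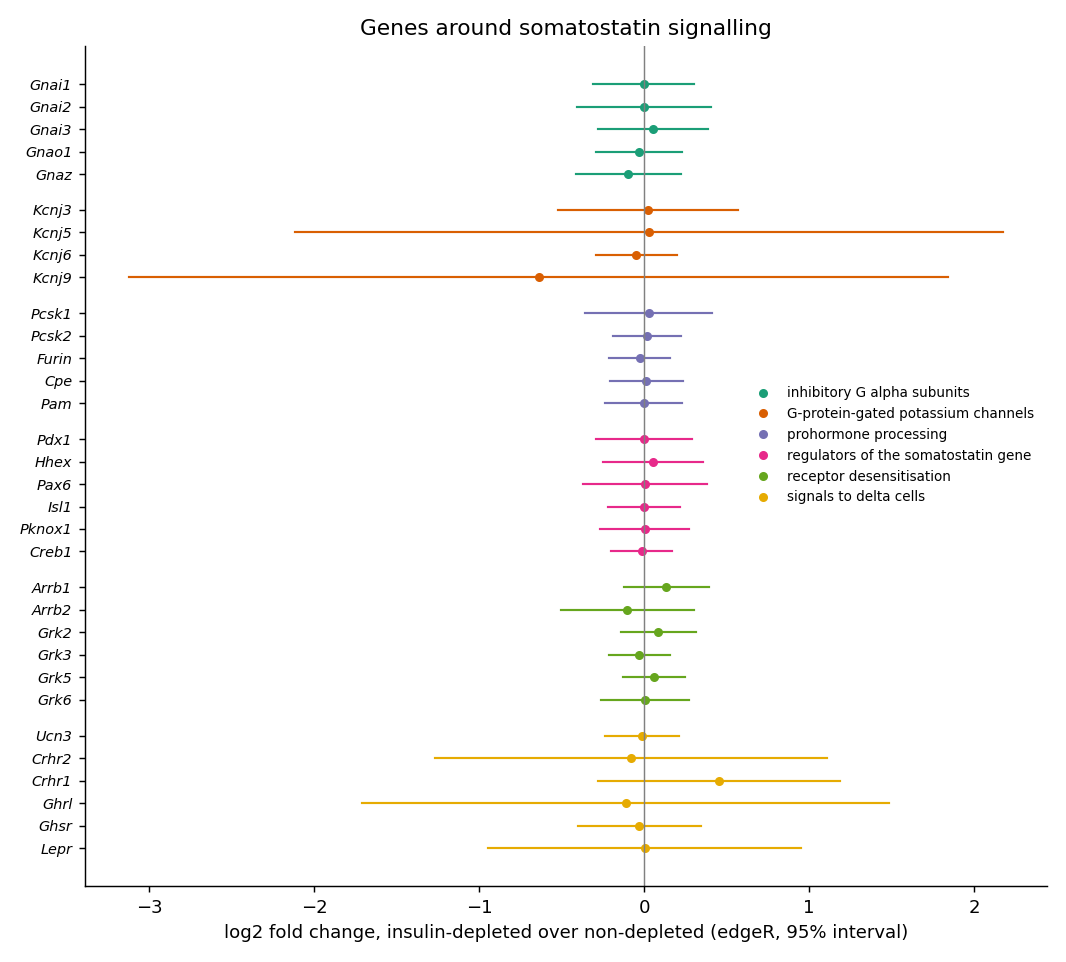
Log2 fold change, insulin-depleted over non-depleted, of 32 genes in 6 lists around somatostatin signalling, with 95% intervals from edgeR. Every interval includes 0. The widest are those of Kcnj9 and Kcnj5, both at low counts, and the highest point is Crhr1 at 0.45.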

How the data were processed

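The authors deposited whole-number counts per gene, with no normalization. The non-depleted columns were handled under the rule for expected counts and hold whole numbers as deposited, so rounding changed nothing. Per the submitters' processing notes, cutadapt 4.8, STAR 2.7.11b and the builds GRCm38 and mm10 were used. Which program counted reads, whether strand was used and how multiply placed reads were treated is not given in the sources used here. All 55536 identifiers matched GENCODE M21, which gave coordinates, exon lengths and transcripts. Protein sequences were not used here, and 1 gene of a pathway list is not reported here.

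The test was that of edgeR 4.0.16 under R 4.3.3 (filterByExpr with a minimum count of 10, TMM scaling, robust glmQLFit and glmQLFTest on group alone) over 19723 genes, with Benjamini-Hochberg adjustment and a threshold of 0.05. The fit was tested on simulated data. The members, lists and tests were chosen with earlier results of these data known. Named genes were all members, the 2 highest reported genes of each pathway list, Hhex, Ucn3, Crhr2 and Ghsr, and the genes nearest in pattern (prior count 2). The highest gene of each marker list is named, and the delta-cell, beta-cell and duct lists are given whole. Replicates differed beyond counting noise (chi-square per degree of freedom 32.7 in insulin-depleted and 51.0 in non-depleted libraries). Alternatives used DESeq2 1.42.0, limma 3.58.1, other filters and scalings, halved counts, a replicate block and each library left out.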

Additional observations from a re-analysis of the deposited data

How the results depend on the processing

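No family member was called under any of the 12 alternatives. The number of all genes called was 2, and it became 9 (2 higher, 7 lower) with a replicate block, and the cause was not tested. It was 2 in the other 11. Labels give the groups the same replicate numbers without saying that they mark shared animals. The differences between replicates 2 and 1 correlated at r = 0.85 across 11554 genes, a hint from the data. With the replicate block, log2 fold changes were -0.0060 for Sst (SE 0.02), -0.05 for Sstr3 (SE 0.02, unadjusted p = 0.0287, edgeR adjusted p = 0.999), -0.03 for Sstr2 and -0.47 for Sstr1. The sign of Sst turned with limma-voom (0.0049). With each library left out, values ran from -0.16 to 0.16 for Sst, from -0.30 to 0.25 for Sstr2, from -0.10 to 0.0097 for Sstr3 and from -1.39 to -0.02 for Sstr1, and the lone library was assumed to vary like the other group. Values above 0 came for Sst without insulin-depleted replicate 1 (0.13) or non-depleted replicate 2 (0.16), for Sstr2 without insulin-depleted replicate 2 (0.25) or non-depleted replicate 1 (0.12), and for Sstr3 without non-depleted replicate 2 (0.0097). Receptor shares depend on the length used by construction: Sstr3 took 97.4% of the summed receptor level per exon length, 98.5% per coding length and 98.7% without a length. The same shares were 1.63, 0.950 and 0.821% for Sstr2 and 0.937, 0.492 and 0.450% for Sstr1. Depth limits Cort, Sstr4 and Sstr5 in all libraries: 3 counts equal 0.156 and 0.0463 CPM in insulin-depleted replicates 1 and 2, and 0.0618 and 0.0516 CPM in non-depleted replicates 1 and 2. Ratios of summed counts were recomputed without each library, a step chosen after seeing the data.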
